A study of Bos taurus with 12 samples.

Results

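In Holstein cattle, 112 genes were expressed in fetal fibroblasts and in both kinds of cloned 8-cell embryo, while in fertilised 8-cell embryos they were listed at under 1 FPKM. FPKM is the fragments of a transcript scaled to its length and to the library's mapped fragments, so it is a level per length. The genes were chosen by 4 limits on the authors' group means over the 22445 loci of the deposited table: at least 5 FPKM in SCNT embryos with KDM5B, in SCNT embryos and in fibroblasts, and under 1 FPKM in IVF embryos. All 4 groups of the series entered this choice. The levels below therefore describe how the genes were picked and what they look like, and none of them is a test.

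Somatic cell nuclear transfer (SCNT) places the nucleus of a body cell into an egg that has lost its own nucleus, and the egg has to silence the program of the old cell and start that of an embryo. In cattle the embryo's own genome becomes broadly active around the 8-cell stage, so cells at this stage are a usual place to look for genes of the old cell that have not been silenced. Such genes are known as somatic memory, which the series title gives as its subject. KDM5B erases a methyl mark that histone H3 carries at active genes, and retention of that mark is a known barrier to reprogramming.

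The groups were SCNT 8-cell embryos overexpressing KDM5B, SCNT 8-cell embryos without it, cultured bovine fetal fibroblasts, and 8-cell embryos from in vitro fertilisation (IVF), with 3 libraries listed for each and 8 embryos pooled per embryo library. All were Holstein, and age, sex, culture time and the way KDM5B was delivered were not stated in the labels. The labels put the fibroblasts under the SCNT heading but do not state that they were the nuclear donors. The deposited values were 1 mean per group, so no SD, n or p-value can be set beside any level, and no difference below could be checked against the spread of replicates. Per the design text, a BGISEQ read the fibroblast libraries and a HiSeq those of embryos, whereas the protocol names a HiSeq for every sample. Embryo cDNA was amplified before library construction. Cell type, amplification and, where the design text holds, instrument cannot be told apart in any comparison of embryos with fibroblasts.

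The table identifies loci by Ensembl gene ID or by an ID of the authors' own, and the gene table used here pairs neither with a name. The 112 genes are therefore described by ID, with no name or function, and fibroblast, oocyte, cumulus and other cell type markers could not be checked. In bulk pools of this kind, fewer cells expressing a gene and less RNA of it per cell cannot be told apart. A mean of 5 FPKM over 3 libraries is also reached when 1 library holds 15 FPKM and the others none, and a mean under 1 only limits the sum of the 3 libraries to under 3 FPKM.

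The 112 genes were low to moderate in the clones and spread more widely in fibroblasts. In SCNT embryos with KDM5B their levels ran from 5.26 to 727 FPKM with a median of 11.3 FPKM. In SCNT embryos they ran from 5.04 to 648 FPKM with a median of 10.6 FPKM. In fibroblasts the range was 5.16 to 3141 FPKM and the median 18.04 FPKM. In IVF embryos they lay between 0 and 0.977 FPKM with a median of 0.47 FPKM. Levels of 20 FPKM or more were reached by 28 genes in SCNT embryos with KDM5B, 27 in SCNT embryos and 48 in fibroblasts, and levels of 100 FPKM or more by 2, 2 and 14 genes. Added up, the genes came to 2823 FPKM (0.318% of the column total) in SCNT embryos with KDM5B and 2727 FPKM (0.308%) in SCNT embryos, against 9985 FPKM (1.89%) in fibroblasts and 54.1 FPKM in IVF embryos.

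**Figure D1:**
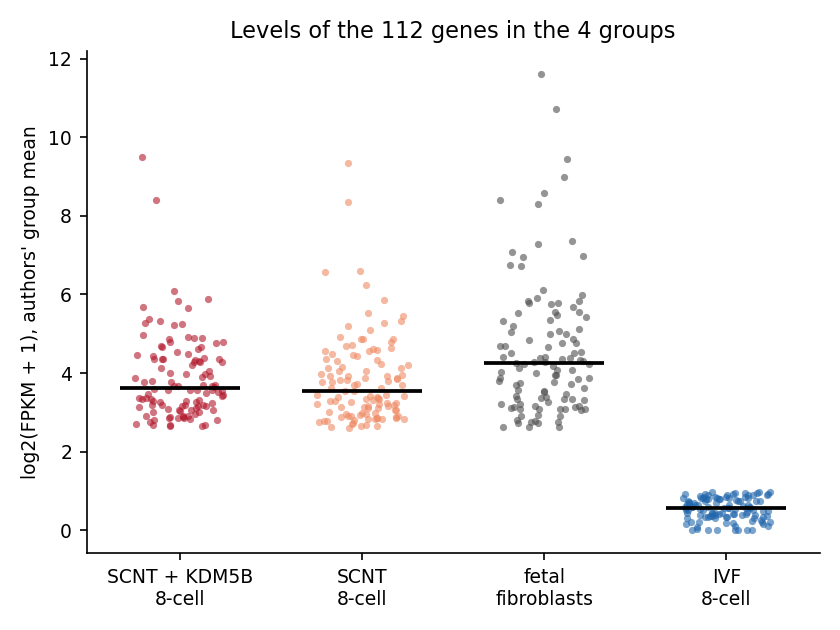
Each point is 1 of the 112 genes, on a log2(FPKM + 1) axis, in SCNT embryos with KDM5B, SCNT embryos, fetal fibroblasts and IVF embryos; the black bar is the median over the genes. The clone medians of 11.3 and 10.6 FPKM lie below the fibroblast median of 18.04 FPKM, and the empty space between the IVF points and the others is set by the limits that chose the genes.

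A pair of genes stood well above the rest in the clones. ENSBTAG00000038783.2 was listed at 727 FPKM in SCNT embryos with KDM5B and 648 FPKM in SCNT embryos, against 509 FPKM in fibroblasts and 0 in IVF embryos. ENSBTAG00000039456.2 was listed at 339 and 323 FPKM in the same clone groups, against 335 FPKM in fibroblasts and 0.807 FPKM in IVF embryos. For both genes the clone levels as deposited were within 1.5 times of the fibroblast level. The clone columns sum to 887410 and 885032 FPKM and the fibroblast column to 528618. Scaling the columns to equal sums would therefore lower both genes against fibroblasts. Together they made up 37.8% of the summed FPKM of the 112 genes in SCNT embryos with KDM5B and 35.6% in SCNT embryos, against 8.45% in fibroblasts.

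The next 4 genes by clone level differed in how near they came to fibroblasts. ENSBTAG00000004796.4 stood at 57.7 FPKM in SCNT embryos with KDM5B and 95.0 in SCNT embryos, against 50.4 in fibroblasts and 0.39 in IVF embryos. ENSBTAG00000000417.5 stood at 67.5 FPKM in SCNT embryos with KDM5B and 39.4 in SCNT embryos, against 40.0 in fibroblasts and 0.937 in IVF embryos. As deposited, both were thus at or above 0.98 times the fibroblast level in each clone group. Scaling the columns to equal sums would lower these ratios too. ENSBTAG00000032022.2 stood at 49.1 FPKM in SCNT embryos with KDM5B and 93.5 in SCNT embryos, against 315 in fibroblasts and 0 in IVF embryos. ENSBTAG00000015828.3 stood at 50.1 FPKM in SCNT embryos with KDM5B and 74.98 in SCNT embryos, against 154 in fibroblasts and 0.127 in IVF embryos. These 2 genes were below the fibroblast level in each clone group and lower with KDM5B than without it. The other 106 genes had clone means, averaged over the 2 clone groups, of 5.37 to 50.9 FPKM.

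Relative to fibroblasts, the middle of the genes lay lower in the clones, and how far depends on the scaling. With every column scaled to a sum of 1000000, the median log2 difference from fibroblasts went from -0.42 to -1.13 with KDM5B. Without KDM5B it went from -0.50 to -1.20. With quantile normalization the medians were nearer to fibroblasts, at -0.28 with KDM5B and -0.21 without. Ratios and counts of ratios below are of FPKM as deposited. The ratio of the clone mean to the fibroblast level had a median of 0.762 and quartiles of 0.392 and 1.27. Both clone groups were below fibroblasts for 66 genes and above them for 26, and for 20 genes the fibroblast level lay between the clone groups. Counted by the ratio, 11 genes were at 2 or more, 27 between 1 and 2, 36 between 0.5 and 1, 30 between 0.1 and 0.5, and 8 under 0.1. Neither the counts below and above fibroblasts nor these ratio classes were computed for other loci. Whether these splits are particular to the genes chosen was therefore not tested. Scaling the columns to equal sums would lower every ratio and so shift the splits. The 8 genes under 0.1 held 104 to 3141 FPKM in fibroblasts and clone means of 5.86 to 27.2 FPKM, so the description of them as kept on in clones rests on the 5 FPKM limit more than on a fibroblast-like level.

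**Figure D2:**
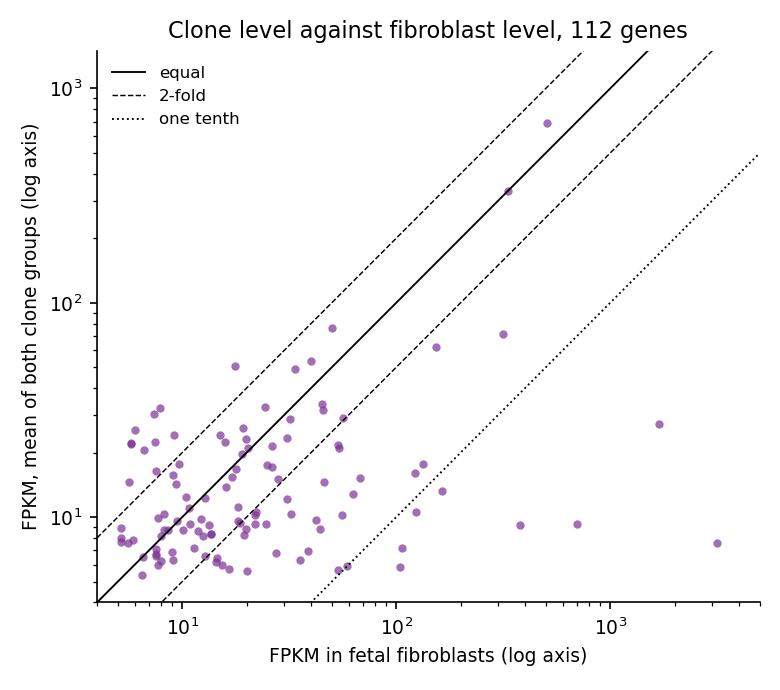
Each point is 1 of the 112 genes, with its level in fetal fibroblasts on the horizontal axis and the mean of the 2 clone groups on the vertical axis, both in FPKM on log axes; the solid line marks equal levels, the dashed lines 2-fold and the dotted line 0.1 times. The 8 genes under the dotted line all exceed 100 FPKM in fibroblasts, and the 2 points farthest up, near the solid line, are ENSBTAG00000038783.2 and ENSBTAG00000039456.2.

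The ends of this order were far apart. ENSBTAG00000005043.1, the highest of the genes in fibroblasts, was listed at 6.18 FPKM in SCNT embryos with KDM5B and 8.93 in SCNT embryos, against 3141 in fibroblasts and 0.6 in IVF embryos, so its fibroblast level was 416 times its clone mean. ENSBTAG00000006367.5 was listed at 5.8 and 12.8 FPKM in the same clone groups, against 700 in fibroblasts and 0.68 in IVF embryos. At the other end, ENSBTAG00000010898.3 was listed at 28.6 FPKM in SCNT embryos with KDM5B and 22.4 in SCNT embryos, against 5.997 in fibroblasts and 0.243 in IVF embryos, a clone mean 4.26 times the fibroblast level. ENSBTAG00000002454.5 was listed at 36.6 and 23.9 FPKM in the same clone groups, against 7.39 in fibroblasts and 0.727 in IVF embryos, a ratio of 4.10.

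The ratio ran against the fibroblast level, which is also its denominator. Fibroblast levels of 100 FPKM or more were found for 14 genes, of which 8 were under 0.1 times that level in the clones and 2 were over 0.5 times. Their median ratio was 0.0834. Under 10 FPKM in fibroblasts were 33 genes, whose median ratio was 1.34, and 24 of them were above the fibroblast level. Since a gene at 5 to 10 FPKM in fibroblasts could enter only with 5 FPKM or more in the clones, ratios under 0.5 were closed to it. Across the 112 genes Spearman's rho was 0.772 for the pair of clone groups, 0.177 for SCNT with KDM5B and fibroblasts, and 0.313 for SCNT and fibroblasts. These values are over genes, which share libraries and were cut at 5 FPKM in each column.

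Set beside other loci on in the same groups, the genes lay lower against fibroblasts. On the log2(FPKM + 1) scale, which shrinks differences of low genes, the median difference of SCNT embryos with KDM5B minus fibroblasts was, as deposited, -0.42 over the 112 genes and 0.52 over all 4717 loci at 5 FPKM or more in both columns. For SCNT embryos minus fibroblasts the median was -0.50 over the 112 genes and 0.53 over 4420 such loci. The gap was smaller beside loci at 1 FPKM or more in either column, whose medians were 0.29 with KDM5B (15136 loci) and -0.02 without (14703 loci). At least 2-fold higher than in fibroblasts were 12 of the 112 genes in SCNT embryos with KDM5B and 10 in SCNT embryos. Of all loci at 5 FPKM or more in both columns, 40.4% and 40.8% were. At least 2-fold lower were 40 genes with KDM5B and 39 without, where 18.8% and 19.3% of all such loci were. Levels in both clone groups were part of the rule and the IVF limit favours genes that are low in embryos, so these counts are read as a description. Of the genes 2-fold apart, 23.1% were higher with KDM5B and 20.4% without. With columns rescaled to TPM (here, each column scaled to a sum of 1000000) these shares were 7.94% (5 higher, 58 lower) and 4.55% (3 higher, 63 lower), because the fibroblast column sums to 528618 FPKM and the clone columns to 887410 and 885032. Of all loci, 27.9% were then higher and 31.0% lower with KDM5B, and 28.2% and 32.1% without, and their median differences turned to -0.18 in both comparisons. Whether loci at large lay above or below fibroblasts thus depends on the scaling. With quantile normalization the shares of the 112 genes were 30.9% (17 and 38) and 32.7% (16 and 33), and of all loci 39.7% were higher and 21.0% lower with KDM5B, and 42.5% and 19.6% without.

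As deposited, genes with a like pattern but more expression in IVF embryos lay nearer to or above fibroblasts. The 489 loci at 5 FPKM or more in both clone groups and fibroblasts and at 1 to under 5 FPKM in IVF embryos had a median of -0.11 for SCNT with KDM5B minus fibroblasts and -0.29 for SCNT minus fibroblasts. The 3722 loci at 5 FPKM or more in all 4 groups had medians of 0.91 and 0.77. Against IVF embryos, which the rule fixes, the 106 genes above 0 there had clone means at least 6.35 times the IVF level, with a median of 25.8 times. In IVF embryos 6 genes were listed at 0, 61 were under 0.5 FPKM and 51 were between 0.5 and 1 FPKM.

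The change with KDM5B was small for most of the genes, among which the rule admits only those at 5 FPKM or more in both clone groups. Fibroblast loci under 1 FPKM in IVF embryos that reached 5 FPKM only with KDM5B (49) or only without it (17) were thus left out. The values below do not cover them. The median difference of SCNT with KDM5B minus SCNT was 0.07 on the log2(FPKM + 1) scale, with quartiles of -0.27 and 0.40. Over all 6297 loci at 5 FPKM or more in both clone groups the median was 0.12, so the 112 genes stood 0.05 below these loci, and over all 22445 loci of the table it was 0.07. KDM5B levels were above those of SCNT without it for 65 genes (58.0%), against 59.1% of all those loci, and below it for 47. The median size of the difference, whatever its sign, was 0.33 for the 112 genes and 0.35 for the loci at large. At least 2-fold higher with KDM5B were 6 genes (5.36%), against 5.53% of the loci, and at least 2-fold lower were 2 genes (1.79%), against 1.72%. As deposited, both shares lay near those of the loci at large. The split depends on the scaling. With columns centred on their median, 3 genes (2.68%) were higher and 7 (6.25%) lower, against 3.13% and 3.8% of the loci. With quantile normalization 3 were higher and 3 lower (2.68% each), against 2.64% and 1.92%.

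**Figure D3:**
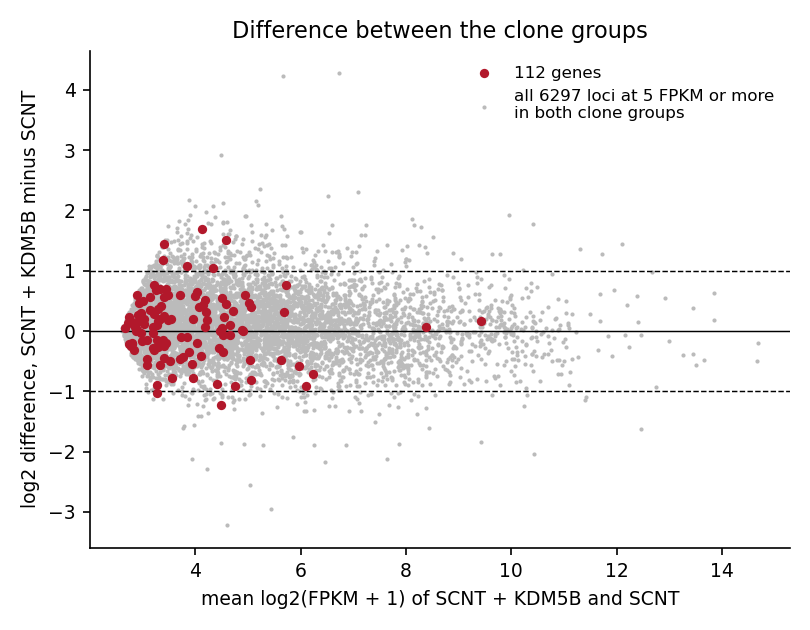
Red points are the 112 genes and grey points all 6297 loci at 5 FPKM or more in both clone groups; the vertical axis is the log2(FPKM + 1) difference of SCNT with KDM5B minus SCNT, the horizontal axis the mean of both, and dashed lines mark 2-fold. Of the red points, 6 lie above the upper line and 2 below the lower one, and all 112 are also among the grey points.

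The genes that moved most between the clone groups were of moderate level. ENSBTAG00000039090.1 was listed at 30.6 FPKM in SCNT embryos with KDM5B and 8.75 in SCNT embryos, a ratio of 3.49, against 18.97 in fibroblasts and 0.763 in IVF embryos. ENSBTAG00000005658.5 was listed at 39.3 and 13.1 FPKM in the same clone groups, a ratio of 3.00, against 19.2 in fibroblasts and 0.657 in IVF embryos. The other 4 genes higher by 2-fold had 14.8 to 28.1 FPKM with KDM5B and 5.43 to 13.2 without. In all 6 the deposited level with KDM5B was above that of fibroblasts, and in 5 of them the level without it was below. Scaling the columns to equal sums would lower the clone levels against fibroblasts, so this position depends on the scaling. In IVF embryos these 6 were at 0.163 to 0.763 FPKM, and the limits of the rule place any higher clone level farther from IVF.

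In the other direction stood BGI_novel_G000241, one of the authors' own loci, at 13.6 FPKM in SCNT embryos with KDM5B and 33.1 in SCNT embryos, against 30.8 in fibroblasts and 0.727 in IVF embryos. ENSBTAG00000006367.5, given above at 5.8 and 12.8 FPKM, was the second. The level without KDM5B was 2.43 times that with it for the first and 2.21 times for the second. With KDM5B, 53 of the 112 genes (47.3%) were nearer to the fibroblast level in FPKM than without it, against 54.3% of the 4323 loci at 5 FPKM or more in both clone groups and fibroblasts. This nearness was counted on FPKM as deposited and not under other scalings, so the gap between these shares may depend on the scaling.

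The 112 genes were a small part of the fibroblast genes that IVF embryos barely express. Of 1882 loci at 5 FPKM or more in fibroblasts and under 1 FPKM in IVF embryos, the 112 (5.95%) reached 5 FPKM in both clone groups. A further 49 did so only with KDM5B and 17 only without it, so 74.2% of these were on the KDM5B side, against 76.0% over the whole table (828 loci only with KDM5B and 261 only without). Under 1 FPKM in both clone groups were 1359 (72.2%). That was no more than for loci lower in fibroblasts, of which 78.8% (under 1 FPKM there) and 75.7% (1 to under 5) were. Among Ensembl IDs these shares were 72.1%, 90.7% and 79.4%. Over all 9863 loci under 1 FPKM in IVF embryos, whatever their fibroblast level, 3.54% reached 5 FPKM in both clone groups.

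That share was larger in each class at 5 FPKM or more in fibroblasts than in either class below, though it did not climb at every step. It was 2.94% (200 of 6811) for loci under 1 FPKM in fibroblasts, 3.16% at 1 to under 5, 5.76% at 5 to under 10, 5.2% at 10 to under 20, 6.0% at 20 to under 50, 6.67% at 50 to under 100, and 8.7% (14 of 161) at 100 FPKM or more. Among Ensembl IDs alone the lowest class held 1.53% (72 of 4707) and the highest 8.92% (14 of 157). The fibroblast libraries are separate from the embryo libraries, so these classes share no column with the clone levels. Over the whole table, 6297 of 22445 loci were at 5 FPKM or more in both clone groups. Among the 8325 at 5 FPKM or more in fibroblasts, 4323 were. A larger share among fibroblast-expressed loci was thus not particular to those under 1 FPKM in IVF embryos. Loci are not replicates, and no p-value is given.

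**Figure D4:**
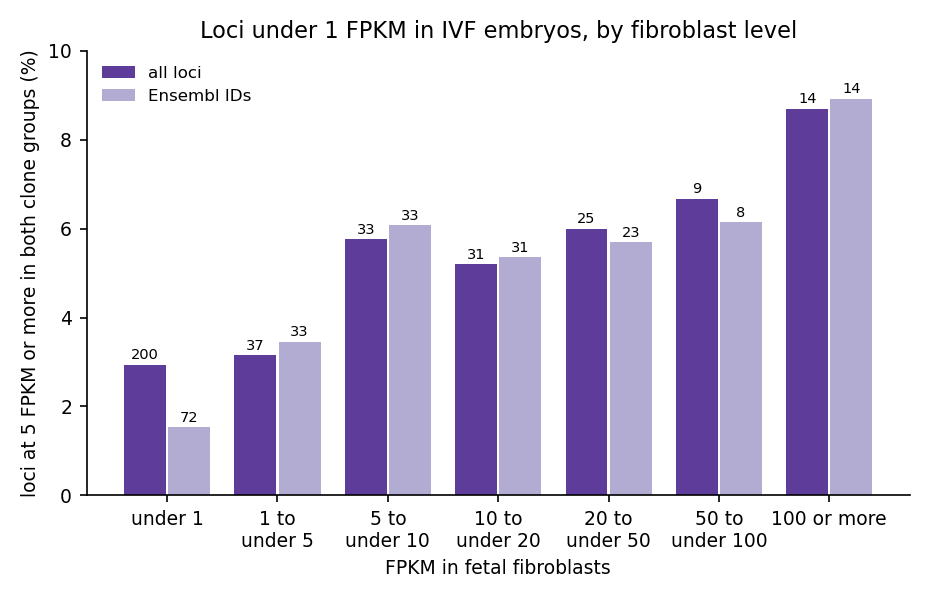
Bars give the percent of loci under 1 FPKM in IVF embryos that reach 5 FPKM in both clone groups, by their FPKM in fetal fibroblasts, for all loci and for Ensembl IDs; the number over a bar is the count of loci that do. The share for all loci is 2.94% in the lowest fibroblast class and 8.7% in the highest, and the 5 classes from 5 FPKM up add to the 112 genes.

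Seen from the clone side, expression in fibroblasts was less common where IVF embryos lacked the gene. Of the 349 loci at 5 FPKM or more in both clone groups and under 1 FPKM in IVF embryos, 32.1% reached 5 FPKM in fibroblasts, as did 37.1% of all loci in the table. The share was 56.3% of 868 loci at 1 to under 5 FPKM in IVF embryos and 76.1% of 1077 loci at 100 FPKM or more. Among Ensembl IDs the shares were 50.9% of 214 loci, 65.0% of 722 and 79.1% of 1010, against 45.9% of all Ensembl IDs. Loci under 1 FPKM in fibroblasts made up 200 of the 349, and 37 lay between 1 and 5 FPKM there.

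The kinds of locus differed between these classes. Loci of the authors' own make up 21.4% of the table and 3.72% of the 1882 fibroblast loci. They make up 64.0% of the 200 loci on in both clone groups and under 1 FPKM in both fibroblasts and IVF embryos. Of the 4323 loci at 5 FPKM or more in both clone groups and fibroblasts they make up 2.57%. Of the 3722 at 5 FPKM or more in all 4 groups they make up 2.36%. Of the 112 genes 109 carried Ensembl IDs and 3 (2.68%) were loci of the authors' own, a share near that of other loci on in clones and fibroblasts. The other 2 such loci, named after their values were seen, were BGI_novel_G003157 and BGI_novel_G000560. BGI_novel_G003157 stood at 24.2 FPKM in SCNT embryos with KDM5B and 43.1 in SCNT embryos, against 44.9 in fibroblasts and 0 in IVF embryos. BGI_novel_G000560 stood at 29.0 and 29.1 FPKM in the same clone groups, against 56.5 in fibroblasts and 0.367 in IVF embryos. No 2 of the 112 genes had the same 4 values.

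The limits cut through a continuous range of levels. The 2 genes nearest inside the limit had 5.26 and 5.27 FPKM in SCNT embryos with KDM5B, and the 2 nearest outside 4.90 and 4.69. In SCNT embryos these values were 5.04 and 5.17 inside and 4.80 and 4.75 outside, and in fibroblasts 5.16 and 5.16 inside and 4.94 and 4.92 outside. In IVF embryos they were 0.977 and 0.977 inside and 1.00 and 1.01 outside.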

How the data were processed

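RNA sequencing covered 12 samples in 4 groups of 3, grouped by sample title. The values are FPKM, deposited by the authors as 1 mean per group. The values look like means of 3 libraries given to 2 decimals: multiplied by 300, all fibroblast values and 99.9955% of those of each embryo group came out whole (tolerance 0.001). Per the submitters' processing notes, which give no roles, the tools were RSEM 1.2.12, Bowtie2 2.2.5, StringTie 1.0.4, HISAT 0.1.6 and bcl2fastq 2.16, with build UMD3.1. No filter or annotation is stated, and library depth is unknown.

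The members and lists were chosen with earlier results of these data known. From the FPKM, differences of log2(FPKM + 1) and plain ratios were computed, and genes counted at 2-fold. With 1 value per group no test could be fitted. Comparisons were read beside loci at 5 FPKM or more in the same columns. Medians against fibroblasts were also read beside loci at 1 FPKM or more in either column. None of the 17643 Ensembl IDs or 4802 authors' loci matched a name: of 37063 entries in the gene table (ARS-UCD2.0), 0 hold an Ensembl ID. The planned gene lists and markers were therefore not analysed here. IDs named are the 6 highest by clone mean and the 2 at each end of the order by ratio to fibroblasts and by KDM5B difference. The rule and counts were tested on simulated data. Alternatives were pseudocounts of 0.1 and 5, limits of 3 and 10 FPKM, IVF limits of 0.5 and 2 FPKM, quantile normalization, TPM, columns centred on the median of their log2 deviations from each gene's mean, other filters and Ensembl IDs alone. Python 3.11.15, numpy 2.4.6, pandas 2.3.3 and matplotlib 3.10.9 were used.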

Additional observations from a re-analysis of the deposited data

How the results depend on the processing

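Of 65 values recomputed under alternatives, 45 stayed near those reported, 18 moved and 2 changed sign. Counts and shares were held to a factor of 1.5, and log2 medians to a shift smaller than a 1.5-fold change, so a median could stay near by this measure while its log2 value changed by a larger factor. The number of genes followed the limits: 219 at 3 FPKM, 37 at 10 FPKM, 61 with IVF embryos under 0.5 FPKM and 248 under 2 FPKM. With the limits kept, it was 125 as TPM and 162 with quantile normalization. The share of fibroblast loci that reach the limit in both clone groups was 9.56% at 3 FPKM and 2.83% at 10. As TPM, medians against fibroblasts were -1.13 with KDM5B and -1.20 without, with 5 and 3 genes 2-fold higher, and 63 lower without KDM5B. Relative to loci at 5 FPKM or more, the median of SCNT minus fibroblasts was -1.03 as reported and -1.02 as TPM. Scaling a column moves the genes and those loci nearly alike, so this gap could hardly change as TPM. It was -0.79 at pseudocount 5 and -0.88 with quantile normalization. Quantile normalization gave 16 genes 2-fold higher in SCNT than in fibroblasts. The median KDM5B difference turned to -0.12 with quantile normalization and -0.13 with columns centred, which remove the shift of the KDM5B column. Genes 2-fold higher with KDM5B numbered 3 at pseudocount 5, with quantile normalization and with columns centred. Genes 2-fold lower numbered 1 at pseudocount 5, 7 with columns centred and 1 among Ensembl IDs alone. Other causes were not tested. No paired analysis was possible because each group has 1 column of means, with no replicate numbers, and leaving out libraries was not run for the same reason.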

Other observations

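Fibroblast genes that IVF embryos barely express and that reached 5 FPKM in 1 clone group only were mostly close to the limit in the other. The 49 that did so only with KDM5B had medians of 6.32 FPKM with KDM5B and 3.27 without, against 16.2 in fibroblasts. In 35 of them the SCNT level was 2.5 FPKM or more, and in 1 it was under 1 FPKM. The 17 that did so only without KDM5B had medians of 3.76 FPKM with KDM5B and 6.57 without, against 15.2 in fibroblasts. In 13 of them the level with KDM5B was 2.5 FPKM or more, and in 1 it was under 1 FPKM. The choice of these loci fixes the direction of their differences.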
